A study of Mus musculus with 5 samples.

Results

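Listed Stat3 and glucocorticoid receptor (GR) binding regions were examined at 6 genes known as glucocorticoid response genes, Ddit4, Gadd45b, Sgk1, Per1, Fkbp5 and Dusp1. A region was taken when its mm9 position fell in a fixed window around the gene. The windows were chromosome 10 from 59.31 to 59.51 Mb for Ddit4, 80.29 to 80.49 Mb for Gadd45b and 21.50 to 21.82 Mb for Sgk1. They were chromosome 11 from 68.81 to 69.02 Mb for Per1, and chromosome 17 from 28.44 to 28.72 Mb for Fkbp5 and 26.54 to 26.74 Mb for Dusp1. These windows held 35 of the 5670 regions in the list, or 0.617%. The regions were thus selected on their listed positions, and the genes with those positions already known, so the number of regions per window is a description and no test was made of it.

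The regions come from chromatin immunoprecipitation followed by sequencing (ChIP-seq) in AtT-20 cells, a mouse pituitary line used as a model of the corticotroph, the cell that makes ACTH. The 4 ChIP libraries were Stat3 after LIF, Stat3 after Dex+LIF, GR after Dex+LIF and GR after Dex, beside a Control IgG library made from chromatin of the different treatments. LIF is a cytokine that acts through Stat3, Dex (dexamethasone) is a synthetic glucocorticoid, and each treatment lasted 20 min. Every library pooled 5 independent ChIPs and stands alone in its group, in 1 cell line, so there is no replicate error. All 4 ChIP libraries share 1 deposited list, which gives each region a position and 1 of 13 cluster numbers and no value per library. What the cluster numbers stand for in terms of factor and treatment is not given, so no statement about Stat3, GR or a treatment at these genes could be made. Sequencing depth and the IgG level at these regions are unknown here, and binding positions offer no marker expression by which to check the cell type.

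GR rests in the cytoplasm with Hsp90 chaperones until hormone binds, then enters the nucleus and binds DNA directly at glucocorticoid response elements or is held there by other DNA-bound factors. Stat3 is phosphorylated after cytokine receptors are engaged, dimerises and binds an inverted repeat. The 6 genes serve different ends of the glucocorticoid response. Fkbp5 encodes a co-chaperone that lowers the hormone affinity of GR, a feedback on the receptor itself. Dusp1 encodes a phosphatase that switches off MAP kinases. Ddit4 (REDD1) encodes an inhibitor of mTORC1 signalling, and Gadd45b a stress-induced protein that acts on MAP kinase pathways. Sgk1 encodes a kinase that regulates ion transport, and Per1 a repressor of the circadian clock.

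Sequence at the listed positions themselves is not shown, because no mm9 genome was used here. The promoters of the same genes in the RefSeq table (GRCm38.p6) were searched instead for the letters of the binding elements of both factors, on both strands. All 6 genes matched, with 12 promoters in total, 6 of them for Sgk1, 2 for Per1 and 1 for each other gene. The full glucocorticoid response element was searched as AGAACA, any 3 bases and TGTTCT, its hexamer alone as AGAACA, and the Stat site as TTCNNNGAA. A full element contains 2 such hexamers, and the matches overlap there. The stretches below are the 250 bases before a gene start, 5′ to 3′ on the gene's strand, with exact matches in capitals. The first 3 are shown because they hold a full element or a Stat site, and the last 2 because Ddit4 and Gadd45b had the most listed regions.
Sgk1, chr10:21993640-21993889, plus strand: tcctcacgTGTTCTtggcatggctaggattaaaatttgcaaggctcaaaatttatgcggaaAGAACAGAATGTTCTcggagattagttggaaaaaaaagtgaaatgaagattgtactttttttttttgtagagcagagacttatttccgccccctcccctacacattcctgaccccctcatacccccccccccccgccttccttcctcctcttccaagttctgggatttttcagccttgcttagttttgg
Sgk1, chr10:21881934-21882183, plus strand: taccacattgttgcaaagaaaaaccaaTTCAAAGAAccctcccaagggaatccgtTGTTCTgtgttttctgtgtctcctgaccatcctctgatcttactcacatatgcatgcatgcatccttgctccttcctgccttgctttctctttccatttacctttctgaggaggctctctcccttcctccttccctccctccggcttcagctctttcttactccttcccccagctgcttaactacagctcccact
Per1, chr11:69099902-69100151, plus strand: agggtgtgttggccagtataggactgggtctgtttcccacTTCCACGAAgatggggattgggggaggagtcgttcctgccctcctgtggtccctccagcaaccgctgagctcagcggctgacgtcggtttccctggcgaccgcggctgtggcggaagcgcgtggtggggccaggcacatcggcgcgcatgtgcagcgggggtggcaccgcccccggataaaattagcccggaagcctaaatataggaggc
Ddit4, chr10:59951771-59952020, minus strand: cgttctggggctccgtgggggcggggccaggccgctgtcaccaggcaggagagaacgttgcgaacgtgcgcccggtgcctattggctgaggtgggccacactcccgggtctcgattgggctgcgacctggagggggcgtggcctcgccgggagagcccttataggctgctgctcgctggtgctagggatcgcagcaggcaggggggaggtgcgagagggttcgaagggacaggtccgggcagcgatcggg
Gadd45b, chr10:80929841-80930090, plus strand: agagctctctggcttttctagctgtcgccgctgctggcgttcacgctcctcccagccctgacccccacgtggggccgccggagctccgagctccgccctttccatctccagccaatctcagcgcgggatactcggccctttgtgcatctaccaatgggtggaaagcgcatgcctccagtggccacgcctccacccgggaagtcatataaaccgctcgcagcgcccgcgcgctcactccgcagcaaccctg

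Of the several Sgk1 promoters, only 1 carried the full element, starting 189 bases before its own gene start. Across the RefSeq table, an exact full element was found in 3 of 32851 promoter windows of the same length (250 bases before the start and 50 after), or 0.00913%, at Sgk1, Acnat2 and Gm35041. The same Sgk1 promoter had a further hexamer 242 bases before the start. The hexamer was found in 3 of the 12 member promoters, all of Sgk1, against 19.0% of all promoters. Exact Stat sites were found in 2 of the 12, against 8.30% of all promoters. They started 223 bases before the most upstream Sgk1 start and 210 bases before a Per1 start. None of the 3 motifs was found as an exact match in the promoters of Ddit4, Gadd45b, Fkbp5 and Dusp1, which says only that these letters are not in these windows. The Sgk1 promoter with the full element was 44.8% G and C, while those of Ddit4 and Gadd45b were 70.0% and 65.2%. The other Sgk1 promoters ranged from 43.6% to 70.4%, and the median of all promoters was 52.4%. Whether a listed region lies at any of these promoters could not be told, since the positions and the promoters are on different builds.

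The 35 regions were spread very unevenly over the 6 genes. The Ddit4 window held 15 and the Gadd45b window 12, together 77.1% of the regions. The Fkbp5 window held 4, the Sgk1 and Per1 windows 2 each, and the Dusp1 window 0. Per Mb of window this was 75.0 at Ddit4, 60.0 at Gadd45b, 14.3 at Fkbp5, 9.52 at Per1 and 6.25 at Sgk1. The whole-chromosome densities were 3.03 per Mb for chromosome 10, 4.32 for chromosome 11 and 1.73 for chromosome 17.

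**Figure D1:**
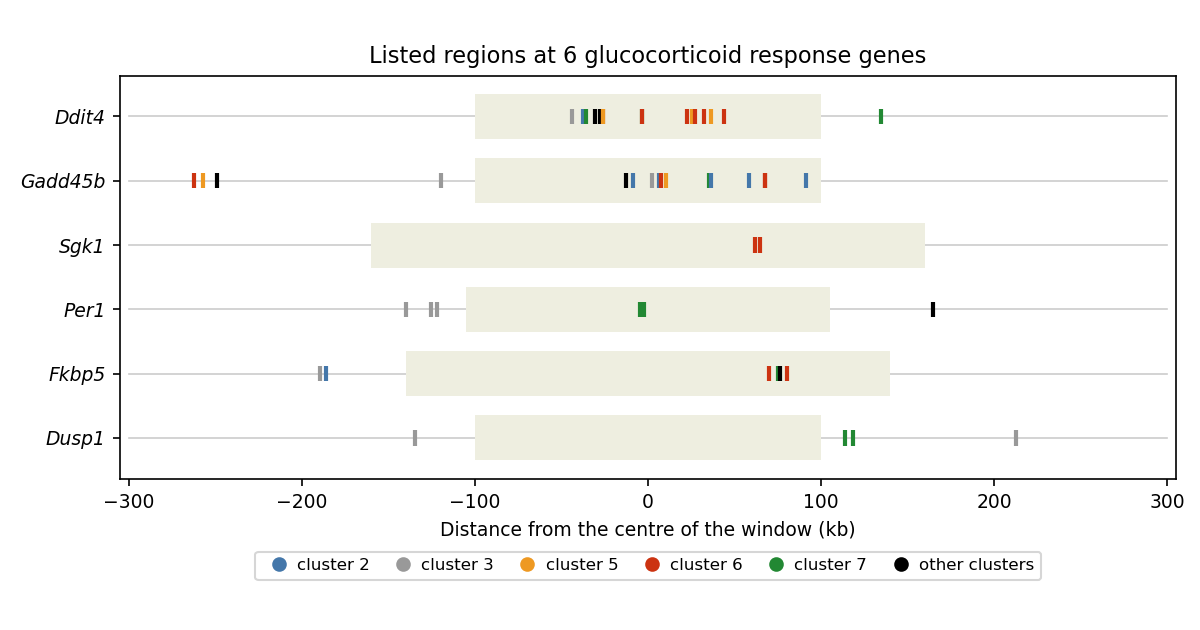
Listed regions within 300 kb of the centre of each window (x axis, kb; 1 row per gene), each drawn as a tick coloured by its cluster. Pale boxes are the windows of the rule; Ddit4 and Gadd45b hold 15 and 12 ticks, Dusp1 none, and the ticks at Sgk1, Per1 and Fkbp5 sit close together with empty stretches on both sides.

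The background for these counts was taken from windows of the same length tiled along every chromosome between its outermost listed regions. At least 15 regions were held by 0.00790% of such windows (1 of 12658) at the length of the Ddit4 window. At least 12 were held by 0.0158% (2 of 12658) at that of Gadd45b. These shares rest on 1 and 2 windows, and with the tiling shifted by 100 kb they were 0.0158% and 0.0395%. Counts like those at the other genes were more common. At least 4 regions were held by 4.05% of windows as long as that of Fkbp5, at least 2 by 10.6% of those as long as that of Per1, and at least 2 by 16.9% of those as long as that of Sgk1. Windows with no region, as at Dusp1, made up 75.3% of all windows of 200 kb. The windows of the rule were placed around genes and not on the tiling, so these shares describe the list and test nothing.

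**Figure D2:**
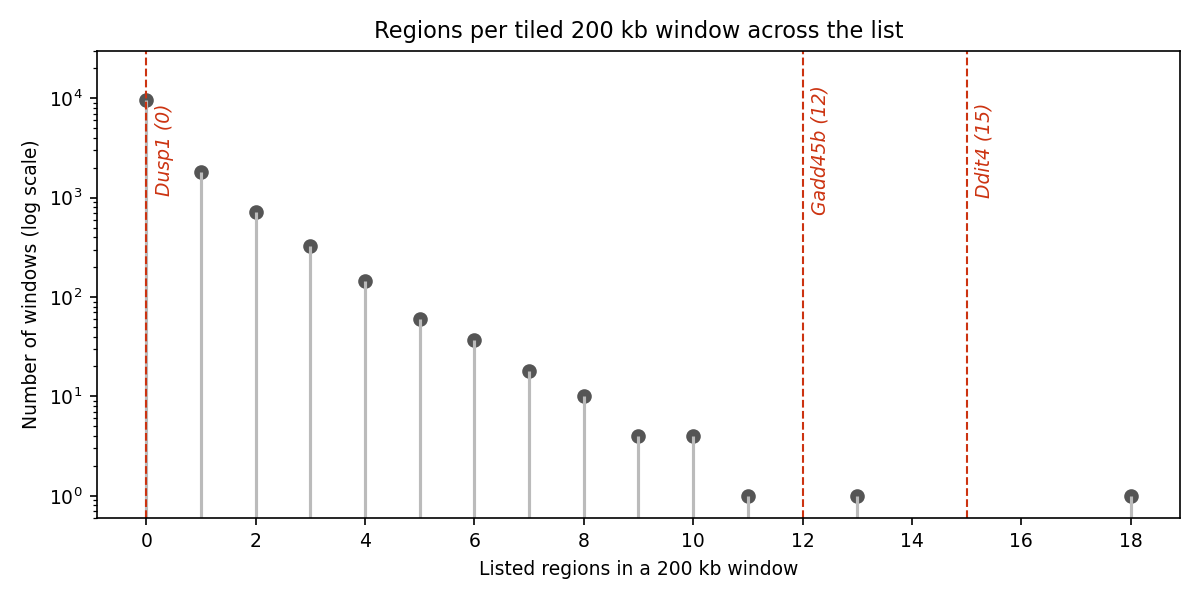
Number of tiled 200 kb windows (y axis, log scale) by the listed regions they hold (x axis). Dashed red lines mark the counts at the 3 genes with windows of that length, 0 at Dusp1, 12 at Gadd45b and 15 at Ddit4; the single fullest window holds 18.

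Cluster 6 was the most frequent class at these genes and cluster 3, the largest class of the list, was rare. Of the 35 regions, 13 (37.1%) were in cluster 6, which held 11.1% of the whole list. Cluster 3 had 2 of the 35 (5.71%) and 43.5% of the list. Clusters 2 and 7 had 6 regions each (17.1%), against 11.6% and 11.0% of the list. Cluster 5 had 4 (11.4%), against 6.65%. Clusters 4, 11, 12 and 13 had 1 region each (2.86%), against 5.86%, 2.28%, 1.04% and 2.05% of the list. Clusters 1, 8, 9 and 10 had none, against 3.49%, 0.829%, 0.511% and 0.106%. With 35 regions, counts this small are not far from those shares. Regions of 1 locus are not independent of each other, and the genes were picked with the list in view, so no test or interval is attached to these shares. They also depend on the window ends, since windows widened by 50 kb would add cluster 3 regions and no cluster 6 region.

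**Figure D3:**
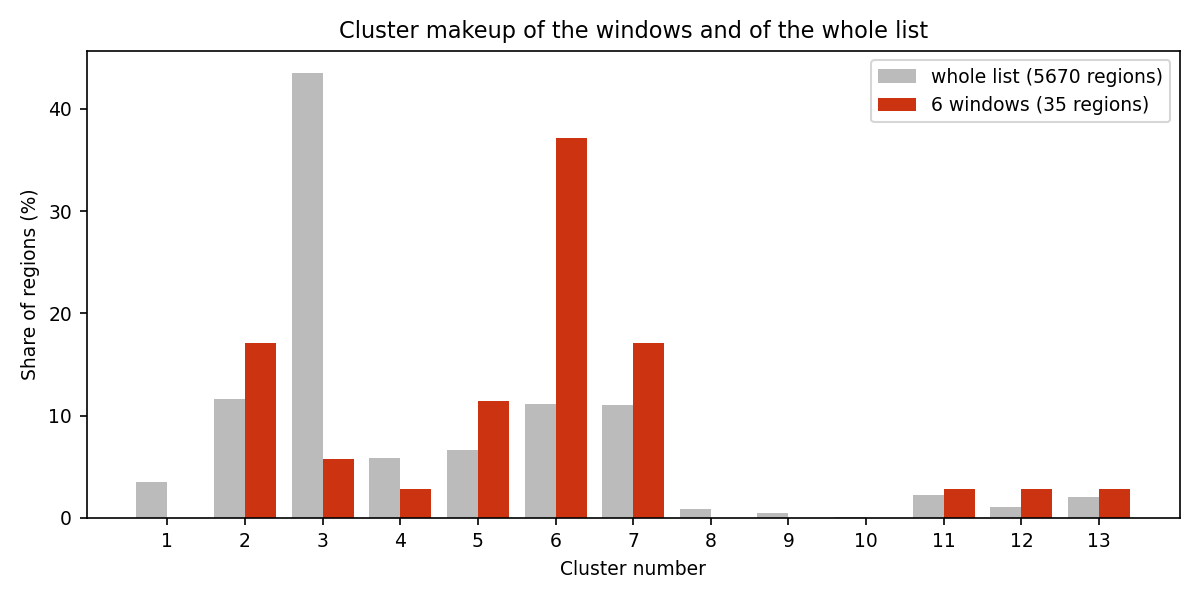
Share of regions (y axis, percent) in each of the 13 clusters (x axis) for the whole list of 5670 regions (grey) and the 35 regions of the 6 windows (red). Cluster 3 has 43.5% of the list and 5.71% of the windows' regions, and cluster 6 has 11.1% and 37.1%.

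The genes did not share the same classes. Cluster 6 occurred at Ddit4 (6 of 15), Gadd45b (3 of 12), Sgk1 (2 of 2) and Fkbp5 (2 of 4), and not at Per1. Cluster 7 occurred at Ddit4 (2), Gadd45b (1), Per1 (2 of 2) and Fkbp5 (1), and not at Sgk1. Both cluster 3 regions lay in the 2 crowded windows, 1 at Ddit4 and 1 at Gadd45b. Cluster 2 had 5 of its 6 regions at Gadd45b and the other at Ddit4. At Sgk1, Per1 and Fkbp5 together, 7 of the 8 regions were in cluster 6 or 7, and the other was in cluster 11. Clusters 6 and 7 held 11.1% and 11.0% of the whole list. The 8 regions form only 1 linked group (gaps of at most 10 kb) per gene, and these clusters were pooled after the values were seen. The makeup also holds only for these window ends. Widened by 50 kb at both ends, the Per1 window would gain regions of cluster 3 and the Fkbp5 window regions of clusters 3 and 2.

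The nearest listed region beyond each end of a window was also taken, at whatever distance it lay. Of these 12 flanking regions, 5 were in cluster 3, 4 in cluster 7, 2 in cluster 2, 1 in cluster 1 and 0 in cluster 6. In that order, these clusters held 43.5%, 11.0%, 11.6%, 3.49% and 11.1% of the whole list. With 12 regions, a count of 0 for cluster 6 is little below its share of the list. Some lay close to the window. The closest was 13.9 kb beyond the Dusp1 window, at 26753860 (cluster 7). Others were 17.1 kb before the Per1 window, at 68792875 (cluster 3), and 19.8 kb before the Gadd45b window, at 80270215 (cluster 3). The farthest lay 2530 kb after the Sgk1 window, and those before the Ddit4 window and after the Gadd45b window were 253 kb and 232 kb away.

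Ddit4, the mTORC1 inhibitor gene, had 15 regions over 88.0 kb, between 59366145 and 59454095 on chromosome 10. Linked at gaps of at most 10 kb, they fell into 3 groups. The first had 7 regions within 18.0 kb, from 59366145 to 59384155, and each was of a different class. In order of position these were clusters 3, 2, 7, 12, 4, 6 and 5. No other linked group of the list held as many classes. The most elsewhere was 5, and the 4 other groups of 7 or more regions held between 2 and 4. The closest regions of this Ddit4 group, a cluster 6 and a cluster 5 region at 59383815 and 59384155, were 340 bp apart.

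The second Ddit4 group was a pair 265 bp apart, a cluster 7 region at 59406470 and a cluster 6 region at 59406735. The third had 6 regions over 21.4 kb, from 59432645 to 59454095, and only clusters 6 and 5, in the order 6, 5, 6, 6, 5, 6. Their gaps were 2870, 1510, 5070, 4340 and 7660 bp. Of the 163 linked groups of 3 or more regions in the list, 7 consisted of clusters 5 and 6 alone. The Ddit4 group was the largest of them, and the largest of the others had 4 regions. These 3 groups were singled out after their values were seen. The 2 ends of the Ddit4 locus thus differed in makeup, a mixed run on the side of lower coordinates and a run of clusters 5 and 6 on the other. They were separated by gaps of 22315 and 25910 bp around the middle pair. Region number 490, which has no entry, falls by its order in the gap of 22315 bp, so that gap could change with it. This region may join a group on either side or stand apart. The first 9 listed regions would stay in 2 groups, because no position in that gap lies within 10 kb of both sides. With linking at 5 kb in place of 10 kb, the 15 regions formed 7 groups.

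Gadd45b, the stress-response gene, had 12 regions over 104 kb, between 80377225 and 80481280 on chromosome 10. Linked at 10 kb, they formed 4 groups and 1 region apart. The fullest group had 4 regions within 8.09 kb, from 80392480 to 80400565, of clusters 3, 2, 6 and 5 in order. A group of 3, from 80448475 to 80457735, had clusters 2, 6 and 6, and its cluster 6 regions were 205 bp apart, the smallest gap at any of the genes. The remaining pairs joined clusters 13 and 2 (80377225 and 80381155) and clusters 7 and 2 (80425145 and 80426615). The region apart, at 80481280, was in cluster 2. At this linking distance, each of the 4 groups included a cluster 2 region, whereas Ddit4 had 1 cluster 2 region in all. With linking at 5 kb, the 12 regions formed 6 groups, a region apart counted as a group.

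**Figure D4:**
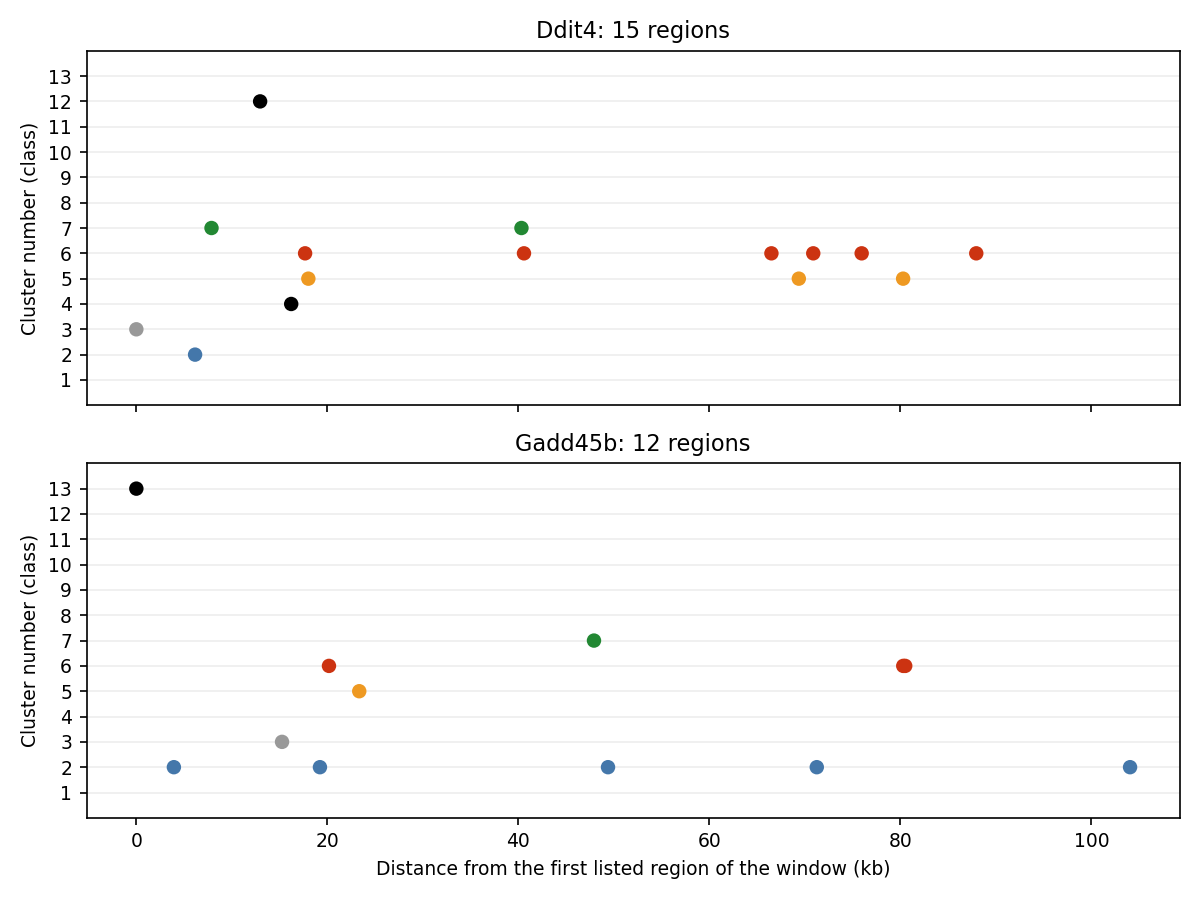
Regions of the Ddit4 (top) and Gadd45b (bottom) windows by distance from the first region (x axis, kb) and by cluster number (y axis, a class and not an amount). At Ddit4 the first 7 regions are of 7 classes and the last 6 of clusters 5 and 6 only; at Gadd45b cluster 2 recurs along the window.

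Fkbp5, the feedback gene of the receptor, had a compact group of 4 regions over 10.2 kb on chromosome 17. They lay at 28649955 (cluster 6), 28654970 (cluster 7), 28656055 (cluster 11) and 28660115 (cluster 6), so that the outer regions were of 1 class and the inner of others. The next listed regions were 256 kb before and 233 kb after this group. Of the 31 linked groups of 4 in the list, 9 had no cluster 3 region, and the Fkbp5 group was among them.

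Sgk1, the ion-transport kinase gene, and Per1, the clock gene, each had a lone pair of 1 class. At Sgk1, both regions were in cluster 6, at 21721675 and 21724885 on chromosome 10, 3210 bp apart. This pair was the most isolated. The nearest listed region lay 373 kb before it, and the next after it was 2620 kb away. At Per1, both regions were in cluster 7, at 68910585 and 68912915 on chromosome 11, 2330 bp apart, with 118 kb and 167 kb to the next regions. Of the 547 linked groups of exactly 2 regions in the list, 30.9% (169) had both in the same cluster. Of these, 21 were cluster 6 pairs like that of Sgk1 and 15 were cluster 7 pairs like that of Per1.

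Dusp1, the MAP kinase phosphatase gene, had no listed region. The nearest were at 26505655 (cluster 3), 34.3 kb before the window, and at 26753860 (cluster 7), 13.9 kb after it. Their region numbers, 2494 and 2495, follow each other, so no number without an entry falls between them. The authors' threshold is not given in the sources used here, and an empty window says only that no region of the list lies there.

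Most regions at these genes had close neighbours. Close neighbours were usually of unlike class, here and in the whole list. Of the 35, 34 (97.1%) had another listed region within 10 kb, against 29.5% of the whole list. Since a window with many regions is crowded by construction, this share follows in part from the choice of genes. Of the 24 consecutive pairs within 10 kb at these genes, 4 (16.7%) joined the same class, against 30.8% (296 of 960) in the list. These were 1 pair each at Ddit4, Gadd45b, Sgk1 and Per1, of cluster 6 at the first 3 and of cluster 7 at Per1. Cluster 3 held 43.5% of the list and 5.71% of these regions. How far this makeup bears on the lower share of like pairs was not tested. Clusters 5 and 6 met in 6 of the 24 pairs, and in 50 of the 960 of the list. Most of these 6 pairs lay in the third Ddit4 group, singled out above, and none was at Sgk1, Per1 or Fkbp5. The widest gap between consecutive regions inside a window was 25910 bp, at Ddit4, while the median gap of the list was 111 kb. Gaps inside a window are limited by its length and leave out the longer gaps on either side, so this difference follows in part from the windows. The median gap within a window was 3.80 kb at Ddit4, 3.97 kb at Gadd45b and 4.06 kb at Fkbp5.

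Region numbers rose with position along every chromosome without exception, and 204 of the numbers up to 5874 have no entry and were not analysed here. Number 490 is 1 of these, and its order places it between 59384155 and 59406470, inside the Ddit4 window. Number 588 belongs between 80481280 and 80722395, and number 939 between 68792875 and 68910585, so that either may lie inside or outside the Gadd45b and Per1 windows. The counts at these 3 genes may therefore be low by 1 each.

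A window can hold regions that belong to neighbouring genes. In the GRCm38.p6 gene table, used for names and order only, Ddit4 is flanked by Gm40673, Gm46226 and Dnajb12 on the side of lower coordinates and by Anapc16, Ascc1 and Spock2 on the other. Gadd45b lies between Lmnb2, Timm13 and Tmprss9 and Gng7, Gm3828 and Diras1. Per1 lies between Vamp2, Snord118 and Tmem107 and a run of transfer RNA genes. Fkbp5 lies between Tulp1, Tead3 and Rpl10a and the non-coding genes Gm22146, E230001N04Rik and Gm41506. Around Sgk1 and after Dusp1, the 3 nearest listed genes on a side were non-coding or pseudogenes, and Neurl1b was the only protein-coding gene among the 3 before Dusp1. Lmnb2 encodes a nuclear lamin, Gng7 a G-protein subunit and Vamp2 a protein of vesicle fusion. Which of these genes a region lies in, and whether it is exonic, intronic or intergenic, is not stated, because no mm9 annotation was used here.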

How the data were processed

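Stat3, GR and control IgG ChIP-seq libraries of AtT-20 cells were made by the authors, 1 per group, with 36 bp reads. The submitters' processing notes name Bowtie, MACS 1.3.7.1 and mm9. How thresholds were set, IgG was used, libraries were merged and clusters were formed is not given in these sources. The deposited list has, per the file header, a track line only. Its entries are points (start equal to end) at multiples of 5 bp with a cluster number, printed as listed, and whether they count from 0 or 1 is not given.

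Regions were selected by the 6 windows, linked at gaps up to 10 kb and compared with the whole list by counts and shares, using Python 3.11.15 and pandas 2.3.3. Promoter sequences came from RefSeq (GRCm38.p6). The counting steps were tested on simulated data. No test was run, because there are no replicates and the genes, windows and groupings were chosen with earlier results of these data known. The named genes are the 6 genes of the rule and up to 3 genes on either side of each. Alternatives were window ends, merging of close positions, tiling, linking distance, single loci left out and motif settings.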

Additional observations from a re-analysis of the deposited data

How the results depend on the processing

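Of 65 values recomputed under other settings, 53 stayed within 1.5 times of the reported count or share and 12 moved further. Some of the 53 could not move. Merging of close positions cannot change the counts at Sgk1, Per1, Fkbp5 or Dusp1, which had no regions that close. A longer linking distance cannot split a locus that is already 1 group. Linking at 5 kb cannot split the pairs at Sgk1 and Per1, which are 3210 and 2330 bp apart. Leaving out Dusp1, which had no region, cannot change the cluster shares. With the tiling shifted by 100 kb, the share of windows as full as the locus went from 0.00790% to 0.0158% for Ddit4 and from 0.0158% to 0.0395% for Gadd45b. With windows widened by 50 kb at both ends, the count went from 2 to 5 at Per1, 0 to 3 at Dusp1 and 4 to 6 at Fkbp5. The regions this added at Per1 were all in cluster 3. Cluster 3 regions were also added at Gadd45b, Fkbp5 and Dusp1, and no cluster 6 region was added at any gene. Cluster shares were not recomputed for widened windows, where cluster 3 would be higher and cluster 6 lower. With windows centred on each listed region, at least as many regions were held by 0.811% of windows for Ddit4, 1.29% for Gadd45b, 77.3% for Sgk1, 69.8% for Per1 and 36.3% for Fkbp5. Such windows hold a region by construction. Linking at 5 kb gave 7 groups at Ddit4 instead of 3 and 2 at Fkbp5 instead of 1. With 1 mismatch allowed, 9 of the 12 member promoters had a Stat site, as did 71.4% of all promoters. With each locus left out in turn, cluster 6 made up 33.3% (without Sgk1) to 43.5% (without Gadd45b) of the regions and cluster 3 made up 4.35% (without Gadd45b) to 6.45% (without Fkbp5). No paired analysis was possible because each group is 1 library and the list has no value per library. Unknown sequencing depth limits every count, because a shallow library yields fewer called regions.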
